A study of Arabidopsis thaliana with 2 samples.

Results

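Aldehyde dehydrogenases (ALDH) are the enzymes that oxidise aldehydes to carboxylic acids with NAD+ or NADP+. In plants the superfamily is divided into numbered families that act at separate points of metabolism, among them phenylpropanoid synthesis, amino acid breakdown, glycolysis and the removal of aldehydes that arise under osmotic and oxidative stress. The genes described here were chosen by name, as those whose probe set is assigned to exactly 1 gene with a symbol starting ALDH, and selected on their measured mean signal over both arrays, which had to reach 39.9 units, the median of that mean over all Arabidopsis probe sets. The rule gave 8 genes of 5990 measured genes, in 7 families, each read by 1 probe set. No ALDH-named probe set lay below the threshold, and the member nearest to it was ALDH22A1, with a mean signal of 58.1 units. An ALDH symbol is borne by 14 genes of the TAIR10.1 gene table, and the other 6, which include those of families 5 and 12, had no probe set named here and were not analysed.

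Arabidopsis thaliana plants were sampled at developmental stage 6.50, the 4 youngest leaves of the rosette were mixed for total RNA, and 1 Affymetrix array was hybridised for each genotype. BOUNTIFUL is a gain-of-function line in the Ws-0 background that carries an activation tag, an I/dSpm insert, in BOU. Ws-0 is the wild-type accession without it, and both were grown in a glasshouse on compost with sand and perlite, under days of 16 h and at 23 °C. The labels give neither the number of plants behind an RNA sample nor the locus of BOU, and the line is 1 tagged allele. The comparison asks how the transcripts of BOUNTIFUL leaves differ from those of the wild type.

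Each value is a signal, the brightness of a probe set in linear intensity units, and each log2 ratio is BOUNTIFUL minus Ws-0 after 7.77 units were added to both signals. With 1 array per genotype no difference has a replicate check, no p-value was computed and the spread between plants is unknown, so every difference below is one between a pair of RNA samples. In RNA from whole leaves, fewer cells of a type and less RNA per cell cannot be told apart. All 5 named leaf markers passed the threshold, with signals that summed to 12048 units on the BOUNTIFUL array and 10566 on the other. They went both ways on the deposited scale, with log2 ratios of -0.32 for RCA, 0.22 for LHCB4.1, 0.63 for LHCB4.3, 0.70 for LHCB4.2 and 0.79 for PSAN, and their part in the ALDH values was not tested. The 5 named markers of root, flower, pollen and seed lay between 1.10 and 26.1 units, below the threshold. The 27 Bacillus subtilis controls, probe sets that no plant RNA should bind, had highest signals of 21.9 units in BOUNTIFUL and 16.7 in the wild type, and the lowest ALDH signal on either array was 54.5 units.

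On the deposited scale, none of the 8 ALDH genes reached a 2-fold difference in either direction, where 8.62% of the 11373 passing probe sets did. ALDH3F1 was higher in BOUNTIFUL, by 1.45-fold after the added 7.77 units, and the other 7 were lower there, by 1.02-fold to 1.32-fold on the same scale, a direction that turned for all but ALDH7B4 with the newer hybridisation spikes set equal and for all 7 with the older. Over all passing probe sets 55.1% had a log2 ratio below 0. The median log2 ratio of the 8 genes was -0.16 (SD over genes 0.28, range -0.40 to 0.54), against -0.06 (SD 0.62) over all passing probe sets. Without ALDH3F1 the SD over the other 7 was 0.13, which had to be smaller because the gene left out had the ratio farthest from the rest. The genes are not replicates of a genotype, and these SDs describe how the ratios vary among genes.

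**Figure D1:**
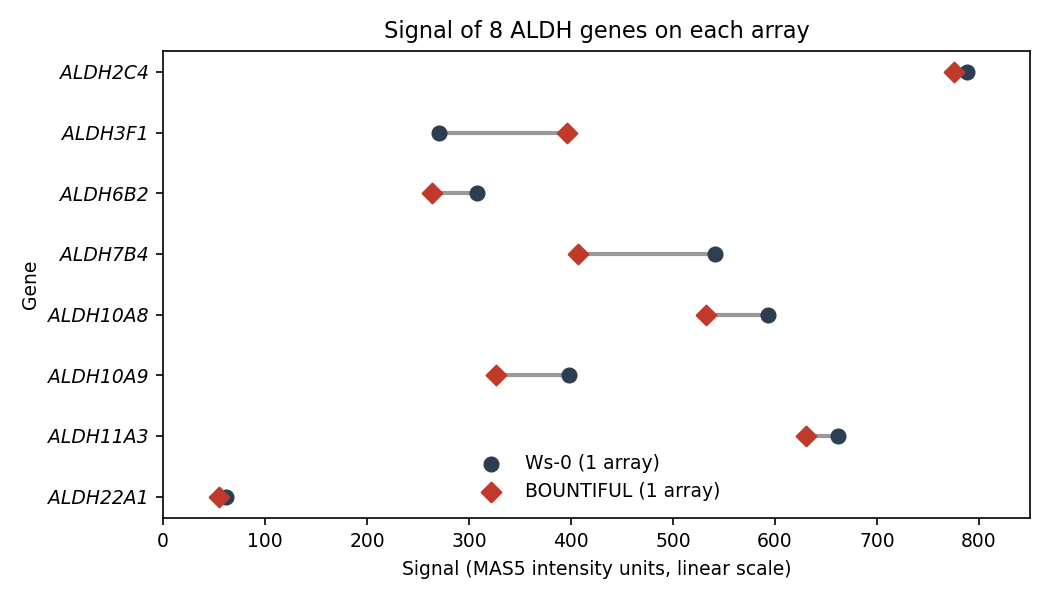
Signal of each ALDH gene on the Ws-0 array (dark circles) and the BOUNTIFUL array (red diamonds), in linear intensity units, with a grey line joining the pair. Each point is 1 array, so there are no error bars, and signals of different genes come from different probes and are not comparable. ALDH3F1 has the BOUNTIFUL point on the right (396 against 271 units), and the other 7 genes have it on the left, on the deposited scale only. On that scale 55.1% of passing probe sets had a log2 ratio below 0. With the older spikes set equal all 8 were higher in BOUNTIFUL, where 16.8% of passing probe sets were below 0 and the median of all passing probe sets was 0.45.

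A scale for how finely a ratio can be read on these arrays came from 33 genes with a pair of passing probe sets. The log2 ratios of a pair differed by a median of 0.21 and, at the 90th percentile, by 0.54. On the deposited scale, 4 of the 8 ALDH genes lay within 0.21 of 0 and 4 lay beyond it, as did 65.7% of passing probe sets. The 4 beyond it were ALDH3F1, ALDH7B4, ALDH10A9 and ALDH6B2. ALDH3F1, at 0.54, lay at the 90th percentile of the pairs. With the newer hybridisation spikes set equal, ALDH7B4, ALDH10A9 and ALDH6B2 lay within 0.21 of 0, at -0.06, 0.06 and 0.12. ALDH3F1, ALDH2C4 and ALDH11A3 then lay beyond it, at 0.88, 0.33 and 0.28. The pair differences cover probes and not plants. They also leave out the scaling between the arrays, which both probe sets of a pair share.

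**Figure D2:**
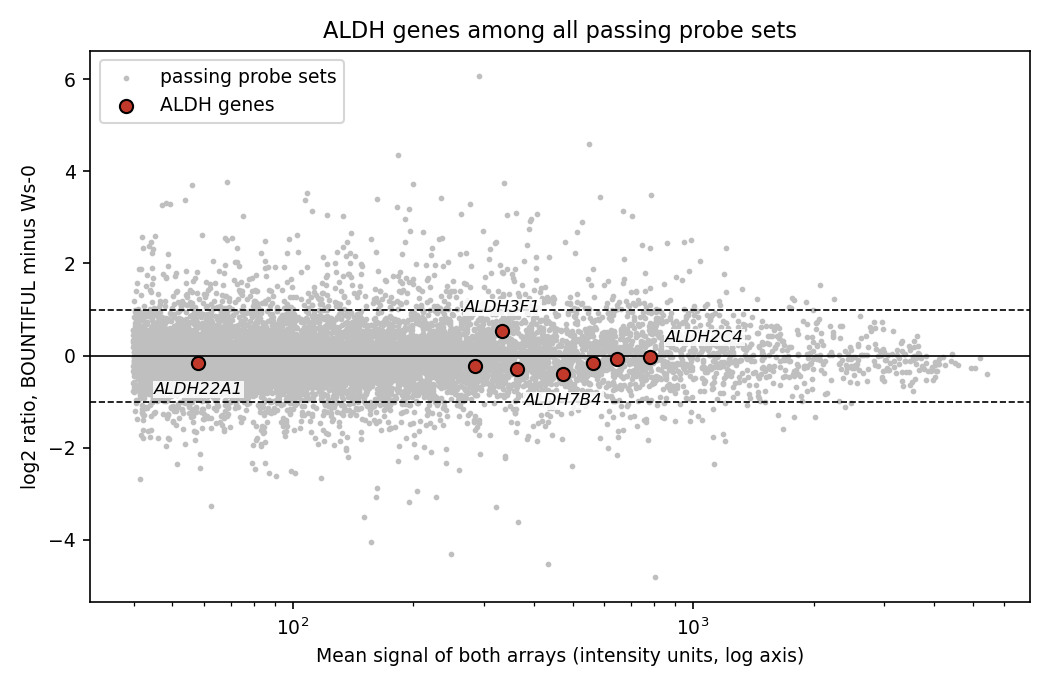
Log2 ratio (BOUNTIFUL minus Ws-0) against the mean signal of both arrays (log axis) for the 11373 passing probe sets (grey) and the 8 ALDH genes (red), with dashed lines at a 2-fold difference. On the deposited scale shown, all 8 genes lie between the dashed lines, from -0.40 for ALDH7B4 to 0.54 for ALDH3F1.

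Family 3 was represented by ALDH3F1 (AT4G36250). Family 3 enzymes oxidise medium- and long-chain aliphatic aldehydes of the kind that form when lipids are peroxidised. Its signal was 396 units in the mutant and 271 in the wild type. It was the only one of the 8 with a log2 ratio above 0 on the deposited scale, at 0.54, and 13.0% of passing probe sets had a higher ratio. The gap between it and the next gene in order, ALDH2C4, was larger than the whole range of the other 7 genes, which spanned 0.38. Setting ALDH3F1 apart was a choice made from these same ratios. The family 3 members ALDH3H1 and ALDH3I1 were not analysed here.

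Family 7 was represented by ALDH7B4 (AT1G54100), a relative of animal antiquitin that takes part in lysine breakdown and is known in plants as a turgor-responsive gene induced by drought and salt. Its signal was 407 units in the mutant and 541 in the wild type, and its log2 ratio of -0.40 was the lowest of the 8. The BOUNTIFUL signal was 75.2% of the Ws-0 signal. Ratios this far from 0 or farther were common on these arrays, since 40.3% of passing probe sets lay farther from 0. The bifunctional lysine breakdown enzyme LKR/SDH (AT4G33150), which acts upstream of family 7 in this pathway, gave 62.2 units in the mutant and 73.2 in the wild type (log2 ratio -0.21).

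Family 10 held the only pair of paralogs measured, ALDH10A8 and ALDH10A9. Enzymes of this family oxidise aminoaldehydes, products of polyamine breakdown, and betaine aldehyde, with ALDH10A8 in plastids and ALDH10A9 in peroxisomes. The signal of ALDH10A8 (AT1G74920) was 532 units in BOUNTIFUL against 594 in the wild type, with a log2 ratio of -0.16. For ALDH10A9 (AT3G48170) the same signals were 326 and 398 units, with a log2 ratio of -0.28. The paralogs thus lay on the same side of 0 on the deposited scale, and their ratios differed by 0.13, less than the median difference of 0.21 between a pair of probe sets of 1 gene. Of the amine oxidases that supply aminoaldehydes, the copper amine oxidase gene CuAO1 (AT1G62810) was the 1 measured of 7 on the polyamine list, with 75.1 units in the mutant and 98.5 in the wild type (log2 ratio -0.36).

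Family 6 was represented by ALDH6B2 (AT2G14170), the mitochondrial methylmalonate semialdehyde dehydrogenase of valine breakdown. The BOUNTIFUL array gave 263 units and the Ws-0 array 308, for a log2 ratio of -0.22. Other enzymes of branched-chain amino acid breakdown lay on both sides of this value. Of 12 genes on that list, 5 had a probe set named here and 4 passed the threshold. Of these 4, 3 had a log2 ratio below 0 and none differed 2-fold, where 55.1% and 8.62% of passing probe sets did. IVD (AT3G45300), the isovaleryl-CoA dehydrogenase of leucine breakdown, gave 53.3 units in the mutant and 60.1 in the wild type (log2 ratio -0.15). MCCA (AT1G03090) and MCCB (AT4G34030), both subunits of methylcrotonyl-CoA carboxylase, had log2 ratios of -0.39 and 0.01. These lay farther apart than the median pair of probe sets of 1 gene, but closer than the 90th percentile of 0.54. MCCA had weak signals, 47.0 units in the mutant and 63.9 in the wild type, against 292 and 290 for MCCB. AT4G20930, to which the gene table gives no name, had -0.23, and the list's median was -0.19. AT5G09300, likewise without a name there, was just below the threshold at a mean of 37.9 units, with a log2 ratio of -0.05.

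Family 2 was represented by ALDH2C4 (AT3G24503), also known as REF1, which oxidises coniferaldehyde and sinapaldehyde to ferulic and sinapic acid in the pathway to sinapate esters, the compounds that make Arabidopsis leaves fluoresce under ultraviolet light. Its signal was nearly equal on both arrays, with 776 units for BOUNTIFUL, 788 for Ws-0 and a log2 ratio of -0.02. Of all passing probe sets, 96.3% lay farther from 0. HCT (AT5G48930), the hydroxycinnamoyltransferase that acts upstream in the same pathway, gave 499 units in the mutant and 344 in the wild type (log2 ratio 0.52). With the newer and the older hybridisation spikes set equal, HCT stood at 0.87 and 1.06. Of 16 phenylpropanoid genes on the list, 2 had a probe set named here, and HCT was the 1 that passed the threshold. CCR2 (AT1G80820), a cinnamoyl-CoA reductase, had 2.25 and 1.05 units, both in the range of the Bacillus subtilis controls.

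Family 11 was represented by ALDH11A3 (AT2G24270), the non-phosphorylating glyceraldehyde-3-phosphate dehydrogenase of the cytosol, which yields NADPH without making ATP. Signals of 630 units in BOUNTIFUL and 662 in the wild type gave a log2 ratio of -0.07, which lay closest of the 8 to the median of all passing probe sets. GAPC2 (AT1G13440), the phosphorylating cytosolic enzyme that acts on the same substrate, gave 2765 units in the mutant and 3327 in the wild type (log2 ratio -0.27). It was the 1 measured of 7 on its list.

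Family 22 was represented by ALDH22A1 (AT3G66658), whose substrate is not well known. It was the member with the weakest signals relative to the threshold, 54.5 units for BOUNTIFUL and 61.7 for Ws-0, with a log2 ratio of -0.16. Being the lowest in signal, it was the member that the added 7.77 units touched most, and its log2 ratio without them was -0.18.

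The linked pathways were read through few genes. Of 73 genes on 9 lists of pathway partners, 15 had a probe set named here and 12 passed the threshold. Of the 12, 10 had a log2 ratio below 0 on the deposited scale, 2 had one above 0, and 1 was lower in BOUNTIFUL by 2-fold or more, where 3.98% of passing probe sets were. Their median log2 ratio was -0.22, and 4 of the 12 were below 0 with the newer and 2 with the older hybridisation spikes set equal, where 27.5% and 16.8% of passing probe sets were below 0, against 55.1% on the deposited scale. The gene past 2-fold was DELTA-OAT (AT5G46180), the ornithine aminotransferase whose product feeds into proline and glutamate metabolism, with 68.6 units in the mutant and 159 in the wild type (log2 ratio -1.13). With the newer and the older spikes set equal it no longer passed 2-fold, at -0.81 and -0.63, nor did it with the pseudocount at the 40th percentile, at -0.98. A threshold at the 75th percentile of mean signal, 116 units, left it out. On the same list AT5G38710, to which the gene table gives no name, had 6.15 units, in the range of the controls, against 41.9 in Ws-0, and its mean lay below the threshold.

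**Figure D3:**
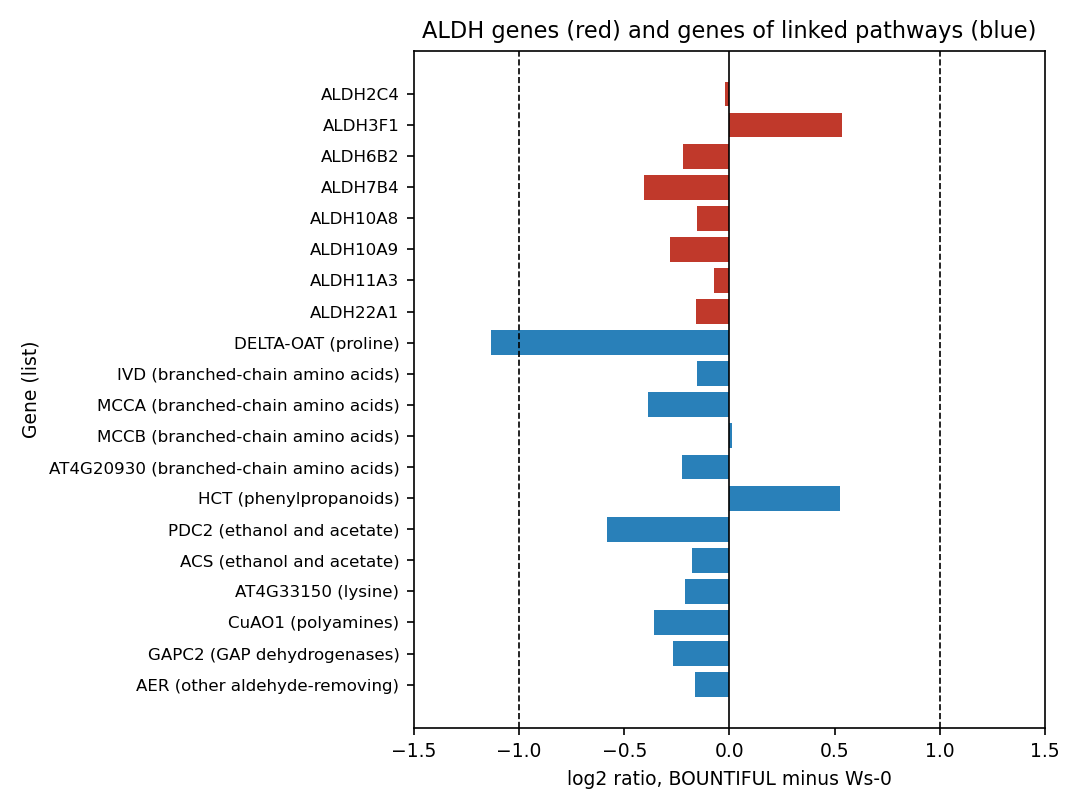
Log2 ratio (BOUNTIFUL minus Ws-0) of the 8 ALDH genes (red bars) and of the 12 measured genes of linked pathways (blue bars, list in parentheses), with dashed lines at a 2-fold difference. DELTA-OAT at -1.13 is the only bar past a dashed line, and ALDH3F1, HCT and MCCB are the only bars above 0 on the deposited scale shown, with 4 of the blue bars below 0 once the newer spikes are set equal and 2 with the older, where 27.5% and 16.8% of passing probe sets are below 0.

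Ethanol fermentation and acetate use, the pathway of the mitochondrial family 2B enzymes not analysed here, had 2 measured genes of 6. PDC2 (AT5G54960), a pyruvate decarboxylase that makes acetaldehyde, gave 393 units in the mutant and 593 in the wild type (log2 ratio -0.58). ACS (AT5G36880), the acetyl-CoA synthetase that uses the acetate, had -0.18 on the same deposited scale. With the newer and the older hybridisation spikes set equal, PDC2 stood at -0.24 and -0.05, and ACS at 0.16 and 0.35. Among other enzymes that remove aldehydes, AER (AT5G16970), an alkenal reductase, was the 1 measured of 10, at -0.17. No gene of the GABA shunt list had a probe set named here.

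Genes next to the ALDH genes on the chromosomes lay on both sides of 0 on the deposited scale. Within 5 protein-coding genes on either side of each member, 80 places in all, 19 genes were measured. Of these, 9 had a log2 ratio below 0, where 55.1% of passing probe sets had, and the median was 0.06. The neighbour farthest from 0 was AT3G06680, 4 genes from ALDH22A1, with 218 units in the mutant and 84.2 in the wild type (log2 ratio 1.30). The genes on either side of ALDH10A8 lay on opposite sides of 0. AT1G74910 gave 235 units in the mutant and 181 in the wild type (log2 ratio 0.37), while ORA47 (AT1G74930), a transcription factor gene of the jasmonate response, gave 109 and 238 units (log2 ratio -1.08). For ALDH3F1 the 1 measured neighbour, AT4G36210, gave 130 and 218 units (log2 ratio -0.71), opposite in sign to ALDH3F1. The neighbours were not read with the hybridisation spikes set equal. That scaling raises every BOUNTIFUL signal, which makes the difference smaller for ORA47 and AT4G36210 and larger for AT3G06680 and AT1G74910.

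The sign of the ALDH log2 ratios depended on the scaling between the arrays. Hybridisation spikes are transcripts added to the hybridisation mix, and their probe sets were on average dimmer on the BOUNTIFUL array, by a log2 ratio of -0.35 for the newer and -0.55 for the older probe sets. With the newer spikes set equal, 1 of the 8 ALDH genes remained below 0, ALDH7B4 at -0.06, where 27.5% of passing probe sets were below 0. With the older spikes set equal none was, where 16.8% of passing probe sets were, and ALDH3F1 passed a 2-fold difference at 1.07, as 14.6% of passing probe sets did. These scalings multiply every BOUNTIFUL signal by 1 factor, which moved the median of all passing probe sets to 0.27 and 0.45 and leaves the order of the genes nearly fixed by construction. Of the 12 alternatives, 4 could change that order, namely quantile normalisation, loess and both other pseudocounts. Under these 4 ALDH3F1 had the highest and ALDH7B4 the lowest log2 ratio. The other pseudocounts could hardly change these places, since ALDH3F1 moved only to 0.55 without a pseudocount and 0.51 with that at the 40th percentile. The order of the genes between them changed under quantile normalisation, loess and the pseudocount at the 40th percentile.

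**Figure D4:**
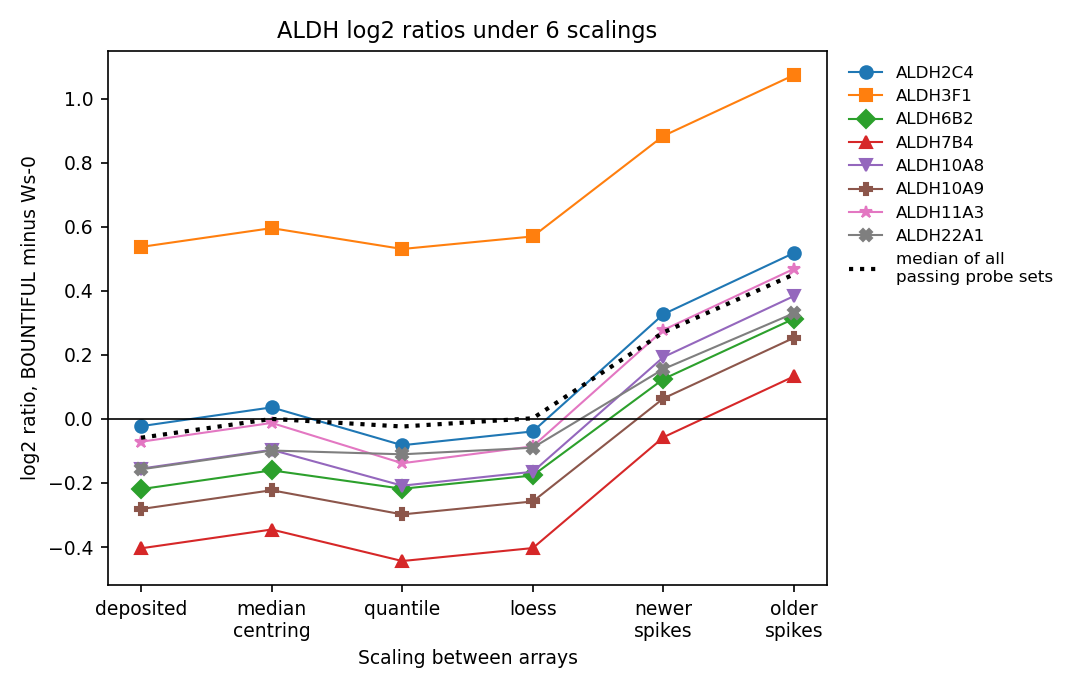
Log2 ratio (BOUNTIFUL minus Ws-0) of each ALDH gene on the deposited scale and under other scalings of the arrays, with the median of all passing probe sets as a dotted line. ALDH3F1 is highest and ALDH7B4 lowest at each scaling shown, of which only quantile and loess could change the order, and with the older spikes set equal all 8 genes lie above 0 together with the dotted line at 0.45.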

How the data were processed

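The deposited values were intensity signals of 22810 probe sets on each of 2 ATH1 arrays, and per the submitters' processing notes the authors used MAS5, its version not given in the sources used here. Their mean after trimming 2% at each end was 100.0 on both, so the authors had scaled them. Log2 ratios of log2(signal + pseudocount) were computed with Python 3.11.15 and pandas 2.3.3. The pseudocount, at the 20th percentile of the signals of both arrays, understates differences of low signals. Without the 64 control probe sets, a mean signal at or above its median was required. Genes were named from the platform annotation and the TAIR10.1 gene table, and probe sets of 1 gene were averaged. Named were all ALDH genes and all measured list members. Members, lists and alternatives were chosen with earlier results of these data known. The calculation was tested on simulated data, in which single probe sets were made to differ by more than any ALDH gene did. That check does not show how finely the smaller ALDH ratios could be read. The number of arrays limits the precision. Protein sequences were not used here.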

Additional observations from a re-analysis of the deposited data

How the results depend on the processing

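No paired analysis was possible because there was only 1 array of each genotype, which also means that none could be left out. A log2 ratio was taken as moved when it changed by 0.21 or more, the median difference between a pair of probe sets of 1 gene. Among the ALDH results this happened only with the spikes set equal, where each BOUNTIFUL signal was multiplied by 1.28 (newer) or 1.46 (older). Of 8 ALDH genes, 7 were below 0 on the deposited scale, 1 when the newer and 0 when the older spikes were equal, and 1 was then 2-fold higher with the older. Their median was 0.17 and 0.36. With the newer spikes equal, the family medians were 0.33 (family 2), 0.88 (3), 0.12 (6), -0.057 (7), 0.13 (10), 0.28 (11) and 0.16 (22). With the older they were 0.52, 1.07, 0.31, 0.13, 0.32, 0.47 and 0.33 in the same order. Partner lists with the newer and older spikes equal stood at -0.81 and -0.63 (proline), 0.12 and 0.29 (branched-chain amino acids), 0.87 and 1.06 (phenylpropanoids), -0.036 and 0.15 (ethanol and acetate), 0.11 and 0.28 (lysine), -0.036 and 0.14 (polyamines), 0.086 and 0.28 (glyceraldehyde-3-phosphate dehydrogenases), and 0.18 and 0.37 (other aldehyde-removing enzymes). No filter put the proline list at -1.48, because AT5G38710 entered. Counts over all passing probe sets were 527 higher and 453 lower by 2-fold or more, against 1118 and 203 with the newer spikes equal, 1663 and 131 with the older, 948 and 799 with no filter, and 322 and 251 with the filter at the 75th percentile, since more or fewer probe sets entered. The latter left out ALDH22A1 and 6 of the 12 partner genes, DELTA-OAT and the proline, lysine and polyamine lists among them, and put the branched-chain list at 0.011 through MCCB alone. With the pseudocount at the 40th percentile DELTA-OAT stood at -0.98, short of 2-fold. Median centring put ALDH2C4 above 0, so that 6 ALDH genes were below 0, where 50.0% of passing probe sets were. Naming members through the gene table and taking the brightest probe set gave the same 8 genes and values.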
